A study of Nothobranchius furzeri with 24 samples.

Results

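The brains of 4 wild female turquoise killifish (Nothobranchius furzeri) of 73 days post hatch (dph) were set against those of 4 females of 39 dph, across all expressed genes. These 8 fish were chosen by the sex and age on their labels, out of the 24 fish of the series, which cover 39, 73 and 108 dph with 4 fish per sex and age. All were untreated animals of the population A41, netted in natural ponds, and age was estimated from the flooding of the pond and from the otoliths. Poly(A) RNA of the whole brain was sequenced, so fewer cells of a type and less RNA per cell cannot be told apart. The older fish were also netted later in the season, and an effect of the date of capture cannot be told apart from one of age. The same holds for RNA integrity, which was slightly lower in the older females by the study's sample sheet.

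The turquoise killifish is an annual fish that completes its life in ponds that dry out within months. Like other teleosts it keeps neural stem cells along the ventricles of the adult brain, and its brain transcriptome is known to change with age in captivity. Gene activity was read as counts of sequenced fragments per gene, given here as CPM, the counts scaled to library size with TMM factors. A gene was called when its false discovery rate (FDR, the Benjamini-Hochberg adjusted p of edgeR's quasi-likelihood test, fitted on all 12 females) was below 0.05. Names are human orthologue names from the study's annotation, and a gene without one is given by its identifier.

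Reads assigned to genes numbered 17169450 to 18238960 in 7 of the 8 females. The library of 39 dph replicate 4 held 4595506, so the count of calls is also given without this fish, over all genes and for each list in which it changed. Markers of neurons were abundant in every brain, and the summed level of 13 neuronal marker identifiers was 4014 to 4255 CPM at 73 dph and 3866 to 4122 CPM at 39 dph. A copy of SNAP25 alone averaged 2148 CPM at 73 dph and 1805 CPM at 39 dph. Of the 13, only 4 had a positive log2 fold change (73 over 39 dph), and the median was -0.12. The 9 named in a table that was not selected by age summed to 1550 to 1707 CPM at 73 dph and 1732 to 1818 CPM at 39 dph. The sole named microglial marker, ITGB2, averaged 58.9 CPM at 73 dph and 64.6 CPM at 39 dph, and no pituitary marker had a named identifier, so those cells were hardly or not covered.

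Between 39 and 73 dph the brains of females changed in many genes by small amounts. Of 18824 genes tested, 1332 were called (7.08%), of which 698 were higher at 73 dph (3.71% of the tested genes) and 634 were lower (3.37%). Among called genes the absolute log2 fold change had a median of 0.48, and 153 (0.813%) differed more than 2-fold, 84 upwards and 69 downwards. The CPM of the 4 older and the 4 younger fish did not overlap for 1251 of the called genes (93.9%), against 15.8% of all tested genes. More genes were called at higher expression, 44 higher and 55 lower of the 4706 least expressed, and 286 higher and 283 lower of the 4706 most expressed.

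**Figure D1:**
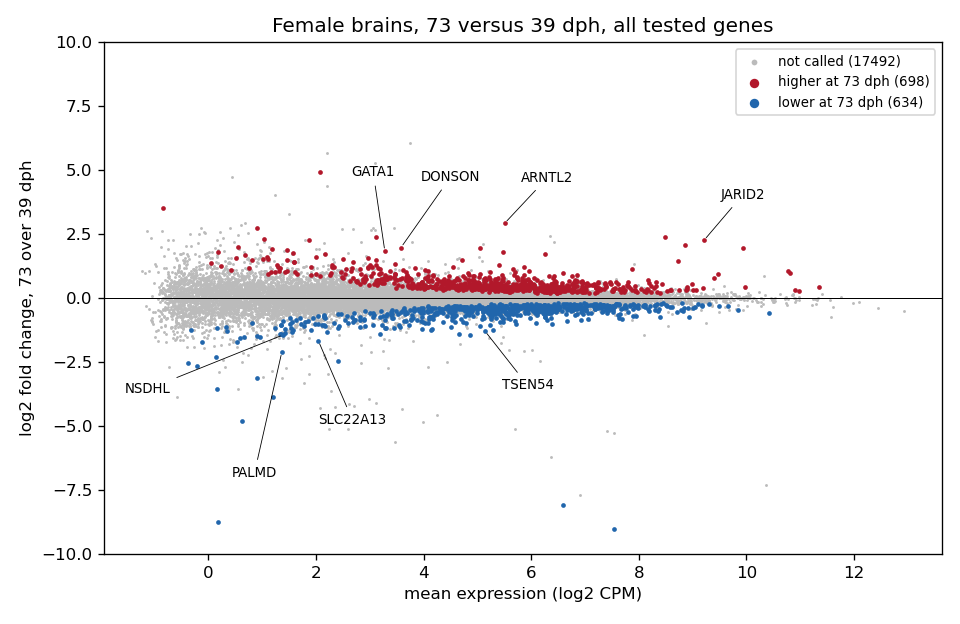
Log2 fold change (73 over 39 dph, vertical axis) against mean expression in log2 CPM (horizontal axis) for each of the 18824 genes tested in females. Red points are the 698 genes called higher at 73 dph, blue points the 634 called lower and grey points the others; most called genes lie close to the zero line.

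The size of the set varied with the fish left out. Without 39 dph replicate 4, 831 genes were called (4.36%), of which 759 belonged to the 1332, and all 1332 kept their sign. Leaving out other fish gave 843, 697, 750 and 913 calls without 73 dph replicates 1, 2, 3 and 4. It gave 1366 calls without 39 dph replicate 1, 579 without 39 dph replicate 2 and 571 without 39 dph replicate 3. Each of these fits also had fewer fish at the age concerned, which by itself can lower the count, and the influence of single fish was not tested apart from that. DESeq2 called 2173 genes, and 1326 of the 1332 were among them.

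**Figure D2:**
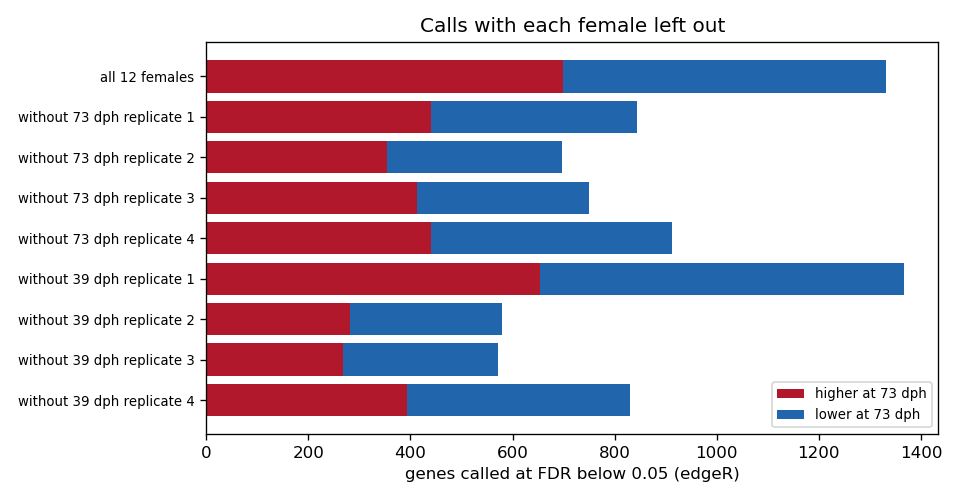
Number of genes called (horizontal axis, FDR below 0.05 in edgeR) with all 12 females and with each female of 73 or 39 dph left out in turn, split into genes higher (red) and lower (blue) at 73 dph. The bars run between 571 and 1366 calls, and red and blue have similar lengths in each.

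On the first principal component of the 8 brains, which held 24.2% of the variance, the score was 21.8 ± 7.27 at 73 dph and -21.8 ± 26.1 at 39 dph (SD, n = 4 each). The groups did not overlap, with scores of 14.0 to 31.6 at 73 dph and of -56.6 to 6.69 at 39 dph. The shallow 39 dph replicate 4 stood lowest, and 39 dph replicate 1 lay nearest to the older fish. The two-sided exact permutation p was 0.0286, which no arrangement of 8 fish can undercut, and 0.0857 after adjustment over 3 components. The score differed by 43.6 between ages, by 37.7 without 39 dph replicate 4 (exact p 0.143) and by 2.83 over the 500 most variable genes (exact p 0.8).

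Among named genes called with and without 39 dph replicate 4, with a mean log2 CPM no lower than 1 and no overlap between ages, the largest rise was that of ARNTL2, a partner of CLOCK in the circadian transcription machinery. ARNTL2 had 81.3, 39.9, 56.7 and 48.0 CPM at 73 dph, against 4.59, 6.09, 6.39 and 16.9 CPM at 39 dph. Each older brain stood above each younger one, and the highest younger value came from the shallow library. The log2 fold change was 2.93 ± 0.34 (SE, edgeR FDR 0.00093), and 3.31 without that fish.

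JARID2 encodes an accessory subunit of the Polycomb repressive complex PRC2, which methylates histone H3. It reached 786, 1162, 939 and 1094 CPM at 73 dph, against 170, 197, 225 and 244 CPM at 39 dph. This gene was expressed far above ARNTL2, its groups lay well apart, and its log2 fold change was 2.27 ± 0.13 (SE, edgeR FDR 4.5e-06). At 108 dph females averaged 576 CPM, which was lower than at 73 dph by 0.79 on the log2 scale (edgeR FDR 0.022).

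The smallest p belonged to an unnamed gene, Nfu_g_1_000909. It had 599, 635, 655 and 629 CPM at 73 dph, against 157, 144, 164 and 138 CPM at 39 dph. Its log2 fold change of 2.07 ± 0.07 had an edgeR FDR of 8.7e-09, and the spread within each age was small beside the difference. Females of 108 dph averaged 617 CPM, a level not called different from that at 73 dph.

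Further named rises among those with the smallest p were smaller. HMGB1, an abundant chromatin protein that bends DNA, had 796, 776, 863 and 921 CPM at 73 dph, against 462, 494, 513 and 461 CPM at 39 dph. The zinc finger gene ZFAND3 had 62.1, 78.3, 78.4 and 80.0 CPM at 73 dph, against 33.6, 32.2, 32.3 and 30.1 CPM at 39 dph. EAPP, which encodes a phosphoprotein that binds E2F factors, had 47.7, 48.4, 44.8 and 49.7 CPM at 73 dph, against 31.7, 28.8, 27.2 and 26.2 CPM at 39 dph. None of the 3 genes overlapped between ages, and their log2 fold changes were 0.81 ± 0.07, 1.23 ± 0.11 and 0.75 ± 0.07 (SE).

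DONSON, a protein of the replication fork, had 29.7, 8.81, 9.67 and 32.2 CPM at 73 dph, against 3.56, 7.30, 4.07 and 5.79 CPM at 39 dph. The older fish formed a high and a low pair, and the low pair stood just above the highest younger fish. Further large rises were smaller than that of ARNTL2. The calcium channel and AMPA receptor subunit gene CACNG7 rose by 1.77 ± 0.31 and the calcium channel subunit gene CACNA2D2 by 1.31 ± 0.21 on the log2 scale (SE). The TBK1 adaptor gene TBKBP1 rose by 1.43 ± 0.31, the autophagy receptor gene OPTN by 1.31 ± 0.28 and the ubiquitin ligase gene FBXO32 (atrogin-1) by 1.23 ± 0.26.

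**Figure D3:**
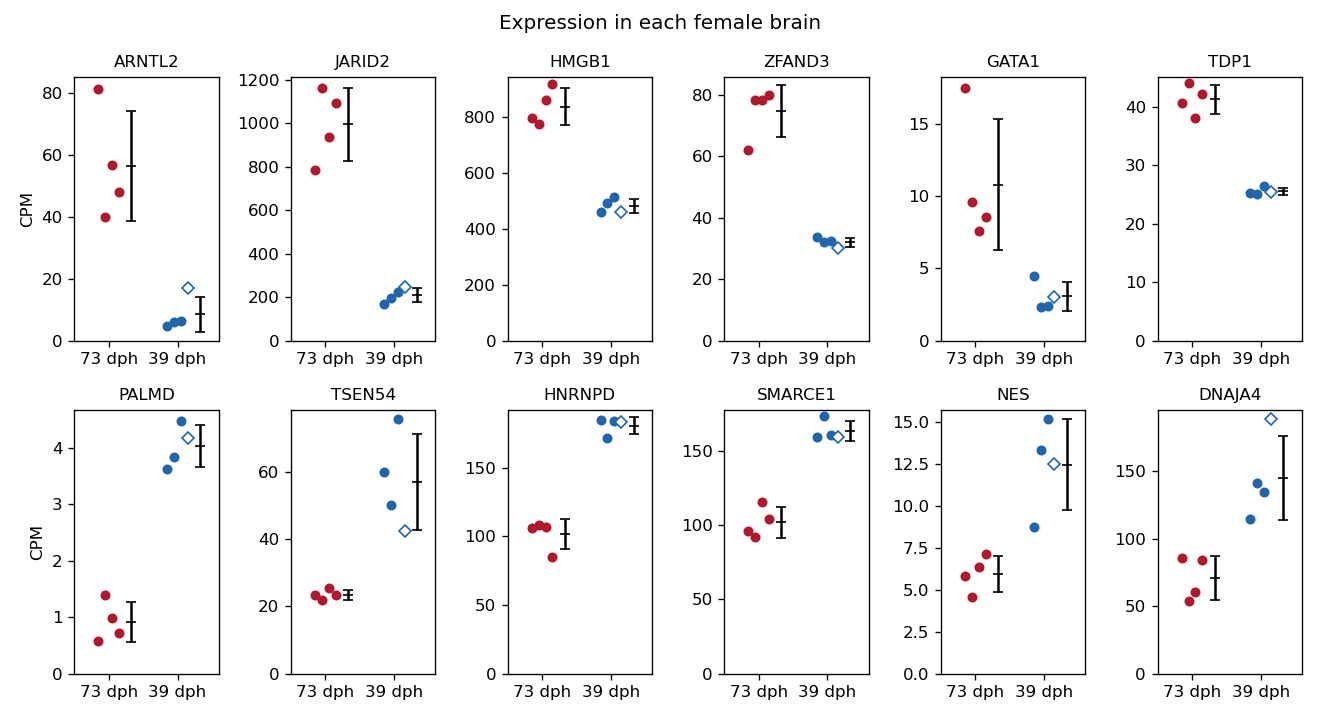
Expression in CPM (vertical axis, from 0) of 12 genes in each female brain, with 73 dph in red to the left and 39 dph in blue to the right; black bars are the mean ± SD of 4 fish, and the open diamond is the shallow 39 dph replicate 4. The upper row shows genes higher at 73 dph and the lower row genes lower at 73 dph, with no overlap between ages in any panel.

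By the same criteria the largest named fall was that of PALMD, which encodes palmdelphin, a protein of the paralemmin family. PALMD had 0.58, 1.39, 0.98 and 0.73 CPM at 73 dph, against 3.62, 3.84, 4.47 and 4.17 CPM at 39 dph. The change of -2.11 ± 0.35 on the log2 scale (SE, edgeR FDR 0.0055) rested on low levels. Females of 108 dph averaged 2.62 ± 1.17 CPM (SD, n = 4), and their difference from 73 dph was not called (FDR 0.067).

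TSEN54, a subunit of the tRNA splicing endonuclease, had 23.4, 21.8, 25.4 and 23.5 CPM at 73 dph, against 60.1, 50.3, 75.7 and 42.6 CPM at 39 dph. The older fish lay close together and the younger were spread widely above them, and the log2 fold change was -1.28 ± 0.14 (SE) at an edgeR FDR of 0.00065. LRRTM2, a postsynaptic adhesion protein, had 3.51, 4.10, 3.50 and 3.97 CPM at 73 dph, against 7.75, 9.66, 8.32 and 8.80 CPM at 39 dph.

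HNRNPD and SMARCE1 were among the named falls with the smallest p. HNRNPD, which binds AU-rich RNA, had 106, 108, 107 and 85.3 CPM at 73 dph, against 185, 172, 184 and 183 CPM at 39 dph. SMARCE1, a subunit of the SWI/SNF (BAF) chromatin remodelling complex, had 96.0, 92.2, 116 and 104 CPM at 73 dph, against 159, 173, 161 and 160 CPM at 39 dph. Their log2 fold changes were -0.82 ± 0.09 and -0.67 ± 0.07 (SE), with an FDR of 0.00064 and 0.00079 in edgeR.

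Further named falls were smaller than that of PALMD. The organic anion transporter gene SLC22A13 changed by -1.66 ± 0.28 and the sodium and inositol cotransporter gene SLC5A11 by -1.40 ± 0.31 on the log2 scale (SE). NSDHL, an enzyme of cholesterol synthesis, changed by -1.43 ± 0.29, and SQLE, an earlier enzyme of the same route, by -1.04 ± 0.26. These were the 2 called of 11 sterol synthesis genes, and SQLE was not called without 39 dph replicate 4 (edgeR FDR 0.052). EPAS1, the hypoxia-inducible factor HIF-2 alpha, changed by -1.25 ± 0.27. These genes were expressed at a few CPM, and the mean of NSDHL was 1.66 ± 0.35 CPM at 73 dph and 4.44 ± 1.37 CPM at 39 dph (SD, n = 4 each).

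Gene groups were described by counts of called members, and most members were not called. With 4 fish per age, a member that was not called may still have changed. Names reached 6557 of the tested genes, and 14.7% of these were called, because part of the annotation came from tables of genes that the study had selected by age. Among the 3910 genes named in a table that was not selected by age, 8.16% were called, 4.09% higher and 4.07% lower. That table came from the study's wild versus captive comparison, which included wild fish of this series and had age as a covariate. It is therefore not a neutral sample of genes. Each count below over all named members in the full set has to be read against 7.73% called higher and 7.02% called lower among all named genes. This share is not matched to each list. Lists differ in how many members were named only through tables selected by age, where more genes were called. In the mitosis and cell cycle list, 4 of 52 members were named in the table not selected by age, against 3910 of all 6557. The median log2 fold change of all named genes was 0.0055. Counts without 39 dph replicate 4 have to be read against 281 higher and 314 lower of the 6557 named genes. Counts over members not selected by age have to be read against the 4.09% and 4.07%, and those without 39 dph replicate 4 against 89 higher and 99 lower of the 3910.

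**Figure D4:**
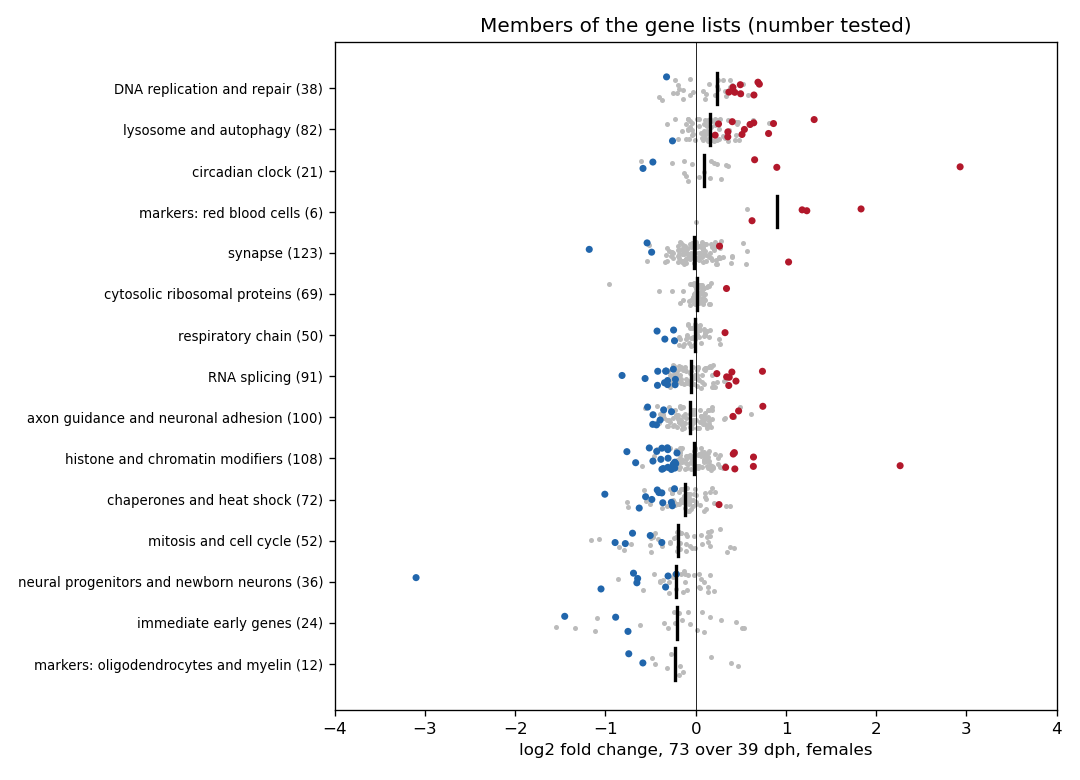
Log2 fold change (73 over 39 dph, horizontal axis) of each named member of 15 gene lists in females, with the number of members tested in brackets. Red and blue points are members called higher and lower, grey points were not called, and the black bar is the list's median, which lies furthest from zero for the 6 red blood cell markers.

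Genes of DNA replication and repair had 8 members called higher and 1 lower of 38, with a median log2 fold change of 0.24. Without 39 dph replicate 4 there were 4 higher and 1 lower. Among the 13 members not selected by age, 2 were higher and none lower, and 1 was higher without that fish. The replicative helicase genes MCM4 and MCM6, which were lower, were counted in the cell cycle list below and not here. TDP1, which removes stalled topoisomerase from DNA, had 40.8, 44.2, 38.2 and 42.2 CPM at 73 dph, against 25.3, 25.1, 26.4 and 25.5 CPM at 39 dph. The checkpoint kinase gene ATR rose by 0.69 ± 0.11, the clamp loader gene RFC3 by 0.65 ± 0.15 and the helicase gene BLM by 0.50 ± 0.11 on the log2 scale (SE). PARP1, a sensor of DNA breaks, went the other way (-0.32 ± 0.08). RFC3 and PARP1 were not called without that fish (edgeR FDR 0.067 and 0.076).

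The mitosis and cell cycle list had no member called higher and 5 lower of 52, with a median of -0.20, and 4 lower without 39 dph replicate 4. The replicative helicase genes MCM4 and MCM6 changed by -0.78 ± 0.18 and -0.89 ± 0.22, the G1 cyclin gene CCND1 by -0.70 ± 0.14 and the nuclear lamina gene LMNB1 by -0.50 ± 0.07 on the log2 scale (SE). MCM4 had 15.6, 9.48, 10.9 and 12.2 CPM at 73 dph, against 17.2, 26.9, 21.8 and 17.1 CPM at 39 dph. In the list not selected by age this group had 4 members and none was called.

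Genes of neural progenitors and newborn neurons had 8 members called lower and none higher of 36, with a median of -0.22, and 7 lower without 39 dph replicate 4. NES (nestin), an intermediate filament of progenitors, had 5.81, 4.54, 6.34 and 7.09 CPM at 73 dph, against 8.73, 13.3, 15.2 and 12.5 CPM at 39 dph. Both copies of SOX4, a transcription factor of newborn neurons, were lower, by -0.65 ± 0.12 and -0.69 ± 0.18 on the log2 scale (SE), and near-identical copies can share reads. The second of these calls was lost without 39 dph replicate 4 (edgeR FDR 0.080). ATOH1, a proneural factor, was called although its groups overlapped, with 8.18 and 8.43 CPM in 39 dph replicates 2 and 3 and at most 0.61 CPM in the other 6 fish. Among the 22 members not selected by age, 2 were lower.

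Neuronal wiring genes changed little as a group. The synapse list had 2 members called higher and 3 lower of 123, with a median of -0.022, and 2 in each direction without 39 dph replicate 4. GRID1, a glutamate receptor family member, rose by 1.03 ± 0.19, and a copy of SNAP25, a core protein of vesicle fusion, rose by 0.26 ± 0.05 on the log2 scale (SE). Another SNAP25 copy was not called (-0.024 ± 0.085), with a mean of 219 CPM at 73 dph and 224 CPM at 39 dph. Of 100 genes of axon guidance and neuronal adhesion, 3 were higher and 7 lower, and without 39 dph replicate 4 none was higher and 8 were lower. The lower ones included both copies of DPYSL2 and of DPYSL5, the collapsin response mediators. A copy of DPYSL5 had 110, 113, 117 and 98.5 CPM at 73 dph, against 175, 174, 152 and 138 CPM at 39 dph.

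Lysosome and autophagy genes had 12 members called higher and 1 lower of 82, with a median of 0.16. SQSTM1 (p62), a cargo receptor of autophagy, had 79.2, 95.9, 78.2 and 89.8 CPM at 73 dph, against 45.8, 52.9, 44.4 and 55.6 CPM at 39 dph. The cathepsin gene CTSZ rose by 0.86 ± 0.17 on the log2 scale (SE), and the lower member was ATP6V1H, a subunit of the proton pump (-0.26 ± 0.05). Among the 47 members not selected by age, 4 were higher and 1 lower. Without 39 dph replicate 4 these had 2 higher and 1 lower, and the full list had 8 higher and 1 lower.

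Chaperone and heat shock genes had 1 member called higher and 11 lower of 72, with a median of -0.12. Without 39 dph replicate 4 there were none higher and 8 lower. DNAJA4, a co-chaperone of Hsp70, had 85.7, 53.7, 60.7 and 84.4 CPM at 73 dph, against 115, 141, 135 and 188 CPM at 39 dph. Both copies of HSPA5 (BiP), the Hsp70 of the endoplasmic reticulum, were lower, by -0.49 ± 0.14 and -0.63 ± 0.15 on the log2 scale (SE), but neither was called without that fish (edgeR FDR 0.104 and 0.056). DNAJA4 and both HSPA5 copies were lower again at 108 than at 73 dph in females (edgeR FDR 0.017 to 0.026). In the 48 members not selected by age, 5 were lower and none higher.

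Of 108 histone and chromatin modifiers, 7 were called higher and 19 lower, with a median of -0.025, and 5 higher and 14 lower without 39 dph replicate 4. Beside JARID2, the rises included the Polycomb genes EZH1 (0.43 ± 0.08) and PCGF3 (0.64 ± 0.12), and the falls the deacetylase gene HDAC8 (-0.76 ± 0.13), the DNA demethylation gene TET3 (-0.51 ± 0.08) and the heterochromatin gene CBX1 (-0.47 ± 0.07). Among the 78 members not selected by age, 6 were called in each direction, and 4 higher and 2 lower without 39 dph replicate 4. Of 91 splicing genes, 7 were higher and 12 lower, and 4 higher and 9 lower without that fish. NOVA2, a neuronal splicing regulator, rose by 0.74 ± 0.13, and the splicing factor gene SRSF1 changed by -0.56 ± 0.07 on the log2 scale (SE).

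In the circadian clock list 3 members were higher and 2 lower of 21, and 2 higher and 1 lower without 39 dph replicate 4. Among the 15 members not selected by age, none was higher and 2 were lower, and 1 was lower without that fish. Beside ARNTL2, the PAR bZIP factor gene TEF had 144, 145, 123 and 106 CPM at 73 dph, against 62.0, 75.4, 61.8 and 82.0 CPM at 39 dph. ARNTL, the paralogue of ARNTL2 and core clock activator, had 33.8, 25.9, 32.2 and 41.5 CPM at 73 dph, against 42.0, 50.3, 55.4 and 54.6 CPM at 39 dph. ARNTL2 and ARNTL thus differed in direction, and the ARNTL change was not called without 39 dph replicate 4 (edgeR FDR 0.077). The brains were dissected within a few hours of sunrise, and the hour of each fish is not given in the sources used here.

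Immediate early genes, which neurons and glia induce within minutes of stimulation, had 3 members lower and none higher of 24. NR4A3 had 16.6, 18.8, 17.1 and 25 CPM at 73 dph, against 20.5, 51.7, 69.2 and 75.2 CPM at 39 dph. The groups overlapped through 39 dph replicate 1. Without 39 dph replicate 4, 1 member was called.

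Cytosolic ribosomal proteins (1 higher of 69), mitochondrial ribosomal proteins (none of 32), the respiratory chain (1 higher and 4 lower of 50) and the proteasome (1 higher of 23) held few calls. Their medians lay between -0.0091 and 0.11. Without 39 dph replicate 4, 1 mitochondrial ribosomal gene was lower, the respiratory chain had 1 higher and 2 lower, and the proteasome had no call. RPS2, a protein of the small subunit, was the ribosomal exception at 0.34 ± 0.07 on the log2 scale (SE).

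Some markers of other cell types also differed between the ages. All 6 named red blood cell marker identifiers had a positive log2 fold change and 4 were called, 3 of them without 39 dph replicate 4. The summed level of the 6 was 171 to 257 CPM at 73 dph and 121 to 132 CPM at 39 dph. Of the 2 not selected by age, 1 was called higher. The copies of ALAS2 differed, with a called rise of 1.23 ± 0.28 in one and 0.0027 ± 0.28 in another (SE, edgeR FDR 0.998). The latter was at -0.11 without 39 dph replicate 4. GATA1, the erythroid transcription factor, had 17.5, 9.59, 7.60 and 8.60 CPM at 73 dph, against 4.48, 2.36, 2.38 and 3.01 CPM at 39 dph. A gene named HBG1 for a human globin (Nfu_g_1_007641) had 1025, 371, 284 and 410 CPM at 73 dph, against 106, 113, 88.1 and 88.0 CPM at 39 dph. The older replicate 1 was highest for both genes, and another HBG1 copy (Nfu_g_1_007654) rose by 1.97 ± 0.33, with reads that the copies can share. GP1BB, a subunit of a platelet receptor, rose by 1.51 ± 0.31 on the log2 scale (SE). The part of blood in the other results was not tested.

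Myelin genes had 2 members lower and none higher of 12, and 1 lower without 39 dph replicate 4, where the MBP copy was not called (edgeR FDR 0.062). This copy of MBP, the myelin basic protein, had 1205, 1276, 1215 and 1037 CPM at 73 dph, against 1979, 1663, 1569 and 1952 CPM at 39 dph. The further MBP copies were not called, at -0.32 ± 0.16 and -0.19 ± 0.19 on the log2 scale (SE). Their means were 993 and 12.8 CPM at 73 dph, against 1250 and 14.8 CPM at 39 dph. CNP changed by -0.74 ± 0.12 on the log2 scale (SE). Among the 7 myelin members not selected by age, none was called. Radial glia and astrocyte markers were split, with 3 higher and 4 lower of 16, and 3 in each direction without that fish. Among the 10 of them not selected by age, 3 were higher and 1 lower, with and without that fish. VIM (vimentin) rose by 0.60 ± 0.11, while 2 of the 3 copies of ALDH1L1 were lower, by -0.57 ± 0.14 and -0.58 ± 0.11. The third ALDH1L1 copy was not called (0.21 ± 0.10), with a mean of 16.3 CPM at 73 dph and 14.2 CPM at 39 dph. Endothelium and pericyte markers had 2 members higher and none lower of 10, with a median of 0.079, and 1 higher without 39 dph replicate 4. Of the 7 not selected by age, none was called. PDGFRB, a receptor of pericytes, had 132, 106, 134 and 135 CPM at 73 dph, against 46.6, 77.7, 58.6 and 101 CPM at 39 dph. The endothelial gene PECAM1 had a log2 fold change of -0.25 ± 0.15 (SE) and was not called. None of 4 skeletal muscle and 7 meninges and fibroblast markers was called, and 1 of 3 photoreceptor markers was lower. Without 39 dph replicate 4 the photoreceptor call was lost and 1 meninges and fibroblast marker was higher. The muscle gene MYL1 averaged 1.22 CPM at 73 dph and 24.2 CPM at 39 dph. Its log2 fold change was -4.20 ± 1.48 (SE, edgeR FDR 0.107), and -0.062 without 39 dph replicate 4.

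Hormone-related genes gave 2 higher and 3 lower of 24, and none higher and 2 lower without 39 dph replicate 4. Both thyroid hormone receptor genes were higher, THRB by 0.73 ± 0.19 and THRA by 0.51 ± 0.14 on the log2 scale (SE), but neither was called without that fish (edgeR FDR 0.080 and 0.072). The neuropeptide gene CCK (cholecystokinin) had 12, 10.6, 10.4 and 13.7 CPM at 73 dph, against 26.0, 28.9, 21.3 and 15.5 CPM at 39 dph, and the insulin signalling adaptor IRS2 changed by -0.96 ± 0.18. The immune and interferon list had 4 higher and 1 lower of 17, and without 39 dph replicate 4 it had 1 higher and none lower. C7, a component of the complement attack complex, rose by 1.36 ± 0.36, a call lost without that fish (edgeR FDR 0.062).

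The 8 males of the same ages share no fish with the females. Of the 1332 called genes 1328 were tested in males, and 1282 of them (96.5%) had the same sign there, as had 73.1% of all genes tested in both sexes. In males 907 genes were called (4.83% of those tested), 474 of them in both sexes with the same direction and none with opposite directions. The called share in males was 35.7% among genes called in females, 2.51% among the others and 4.88% among all genes tested in both sexes. Genes that rose in females had a median log2 fold change of 0.51 in females and 0.39 in males, and those that fell had -0.46 in females and -0.37 in males. These genes were selected by their change in females, which favours larger values there, so the medians do not measure a difference between the sexes.

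**Figure D5:**
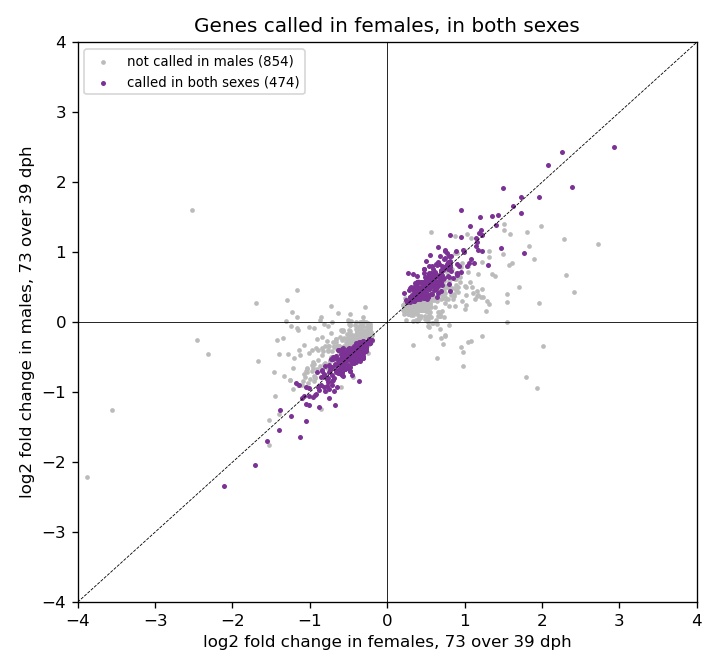
Log2 fold change of 73 over 39 dph in males (vertical axis) against that in females (horizontal axis) for the 1328 genes called in females and tested in males; purple points (474) were also called in males, and the dashed line marks equal change. Nearly all points lie in the quadrants of equal sign, and 4 points lie outside the axes.

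No gene passed the test of a difference between the sexes in this change. Of 19358 genes tested none was called by edgeR (smallest FDR 0.897), and 886 (4.58%) had an unadjusted p under 0.05. DESeq2 called 1, COL28A1, a collagen gene with 0.86, 0.55, 19.1 and 23.1 CPM in 73 dph females, against 0.29, 0.38, 0.51 and 0 CPM in 39 dph females. In males the fish with over 11 CPM were 39 dph replicates 1 and 2 and 108 dph replicate 4. ARNTL2 and JARID2 rose in males too, by 2.50 ± 0.43 and 2.43 ± 0.16 on the log2 scale (SE).

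HBG1 and TSEN54 are given by sex, and neither difference between sexes passed the adjustment. HBG1 (Nfu_g_1_007641) averaged 522 ± 339 CPM at 73 dph and 98.8 ± 12.7 CPM at 39 dph in females, and 224 ± 76.1 CPM at 73 dph and 165 ± 58.0 CPM at 39 dph in males (SD, n = 4 each). The change in males was 0.43 ± 0.34 on the log2 scale (SE) and was not called. The unadjusted p of the difference between sexes was 0.00089 in edgeR. SLC4A1, the anion exchanger of red blood cells, rose in both sexes, by 0.62 in females and 0.51 in males on the log2 scale. Of the 6 red blood cell marker identifiers it was the only 1 called in males. Their median log2 fold change was 0.28 in males and 0.90 in females. The other markers called in females were not called in males, with GATA1 at 1.09, RHAG at 0.39 and the ALAS2 copy at -0.19. TSEN54 averaged 23.5 ± 1.48 CPM at 73 dph and 57.2 ± 14.3 CPM at 39 dph in females, and 25 ± 3.30 CPM at 73 dph and 34.2 ± 11.7 CPM at 39 dph in males.

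Later in life fewer genes were called. Between 73 and 108 dph, a comparison that shares the 73 dph fish, 134 genes were called in females (0.712%). ARNTL2 averaged 8.50, 56.5 and 70.6 CPM at 39, 73 and 108 dph, and DNAJA4 averaged 145, 71.1 and 35.8 CPM. DONSON averaged 5.18, 20.1 and 9.92 CPM, and its later change was not called.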

How the data were processed

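According to the study's methods, stranded poly(A) libraries were read single-end and pooled over lanes, and the authors converted base calls with bcl2fastq 1.8.4, mapped reads with TopHat2 2.1.0 (at most 1 place per read) and counted sense reads per gene with featureCounts 1.5.0. The deposited counts were analysed. The deposited RPM values equalled counts scaled to each total within 4.91e-11, and the deposited RPKM values served only for gene lengths. Genes passed filterByExpr with a minimum count of 10. Tests used edgeR 4.0.16 in R 4.3.3 (TMM, quasi-likelihood F test, 1 mean per age over 12 females, or per age and sex over 24 fish for the difference between sexes), and the SE is the log2 fold change over the square root of F. DESeq2 1.42.0 was an alternative. Both were tested on counts simulated with edgeR's own estimates of the spread, with changes placed only in well-expressed genes. There edgeR kept its false calls below the nominal rate and DESeq2 did not. That setting favours edgeR, so it does not show how many DESeq2 calls in these fish are false. Named genes were the 12 largest rises and falls, the 4 smallest p each way and the unnamed extremes, with an FDR below 0.05 with and without 39 dph replicate 4, a mean log2 CPM no lower than 1 and no overlap. Members of lists only had to be called, up to 4 per list and direction. The 3 genes that moved most without that fish are also given. Genes and lists were chosen with earlier results of these data known. Replicate numbers follow accession order and pair nothing. By the study's sample sheet RNA integrity was slightly lower in the older females, and age and integrity cannot be told apart. No genome was used, so no positions or sequences are given.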

Additional observations from a re-analysis of the deposited data

Results flagged for a closer look

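Dixon's gap test was applied to the 2 female groups for the total of reads, the first component and 36 leading genes, and 13 of 76 groups had a fish apart. Of these genes 3 had been chosen because they moved with 39 dph replicate 4 (Nfu_g_1_015319, Nfu_g_1_014206 and Nfu_g_1_002091). Without them 8 of 70 groups had a fish apart, where chance alone gives about 1 in 20. Among the 73 dph fish, replicate 1 was apart for HBG1 (Nfu_g_1_007641) at 1025 CPM (284 to 410) and for ZFAND3 at 62.1 CPM (78.3 to 80.0). Replicate 2 was apart for TBKBP1 at 4.88 CPM (2.63 to 3.01), for Nfu_g_1_015319 at 3.82 CPM (0.87 to 1.34) and for Nfu_g_1_002091 at 87.6 CPM (0.52 to 5.53), and replicate 4 for HNRNPD at 85.3 CPM (106 to 108).

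The total of 39 dph replicate 4 (4595506 reads) stood apart from the other 3 (17582640 to 18238960). In that library ARNTL2 was at 16.9 CPM (others 4.59 to 6.39), Nfu_g_1_015319 at 1473 CPM (0.60 to 2.55), Nfu_g_1_014206 at 681 CPM (0.62 to 0.77) and Nfu_g_1_002091 at 15793 CPM (7.98 to 30.4). In 39 dph replicate 2, HNRNPD was low at 172 CPM (183 to 185) and SMARCE1 high at 173 CPM (159 to 161).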

How the results depend on the processing

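The count of 1332 called genes was within 1.5 times of the original with the 8 females alone, with all 24 fish, with DESeq2 size factors, with either other filter and with the length trend removed. It was 2173 with DESeq2, 318 at an FDR of 0.01, 824 with libraries thinned to the shallowest and 662 without 39 dph replicates 1 and 4, and 571 to 1371 when each female was left out. DESeq2 without 39 dph replicate 4, chosen after seeing the data, called 1880. The count shared with males was 474, against 897 with DESeq2, 742 with all 24 fish in 1 model and 239 to 346 with 1 fish left out. The difference between sexes had 0 calls with each fish left out and 1 with DESeq2. The first component differed by 43.6 between ages, by 37.7 without 39 dph replicate 4 (exact p 0.143) and by 2.83 over the 500 most variable genes (exact p 0.8).

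The log2 fold change of Nfu_g_1_015319 was -7.69, and between -8.44 and 0.33 when each female was left out, turning positive without 39 dph replicate 4. That of Nfu_g_1_002091 was -7.31, and between -10.03 and 0.60, likewise. Without 39 dph replicates 1 and 4 they were at 0.16 and 0.28, and in DESeq2 without replicate 4 at 0.33 and 0.61. Neither gene was called in the full set, without 39 dph replicates 1 and 4, or without replicate 4 in edgeR or DESeq2. Over all settings run in edgeR or DESeq2 the lowest FDR was 0.033 for Nfu_g_1_015319, below 0.05, and 0.074 for Nfu_g_1_002091. The log2 fold change of Nfu_g_1_014206 was 1.35 (edgeR FDR 0.76), and 9.27 without 39 dph replicate 4 (edgeR FDR 0.094). Its FDR ran from 4.9e-05 to 0.90 over 23 other settings in edgeR or DESeq2. Of 123 named called genes none reversed, and 40 lost the call without replicate 4. For 27 lists the median over members not selected by age was compared with 108 values from other settings, including the change to all named members. Of these values 13 moved by more than the spread between fish. The stability of the medians over all named members was not tested. No paired analysis was possible because the replicate numbers only follow accession order. The causes were not tested.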

Other observations

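Of the called genes, 5 had a log2 fold change beyond 4 in size, and they were chosen here after their values were seen. Nfu_g_1_018978 had 2266 CPM in 39 dph female replicate 4 and 0.84 to 4.19 CPM in the other 7 females, and Nfu_g_1_019366 had 1181 CPM in the same library and 0.56 to 2.85 CPM in the others. Neither call remained without that library (edgeR FDR 0.064 and 0.45). Together with the 3 genes that moved most without it, these took 2.01% of its reads and at most 0.0894% in any other female. The other shallow library of the series, 39 dph male replicate 4, had 251 CPM of Nfu_g_1_018978, 113 CPM of Nfu_g_1_019366, 161 CPM of Nfu_g_1_015319 and 1598 CPM of Nfu_g_1_002091. In the other 22 fish these 4 genes had medians of 1.28, 0.75, 0.85 and 4.23 CPM.

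Nfu_g_1_010581 had no read in the 4 females of 73 dph and 4.08, 2.41, 3.56 and 3.01 CPM at 39 dph, at least 77.8-fold lower at 73 dph against a floor of 3 reads over the group. Among males it was present in some fish of each age, at up to 4.31 CPM at 39 dph, 1.41 CPM at 73 dph and 1.44 CPM at 108 dph. TRIM25 (Nfu_g_1_014318) had at most 0.17 CPM at 73 dph and 3.02 to 3.73 CPM at 39 dph in females, while 2 males of 73 dph had 2.59 and 4.79 CPM, and 1 male of 39 dph had 4.52 CPM. The TRIM25 call was lost without 39 dph female replicate 4 (edgeR FDR 0.062) and with all 24 fish in 1 model (edgeR FDR 0.118).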
